A study of Homo sapiens with 5 samples.

Results

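The genes described here are 58 protein-coding genes known from general knowledge as targets of the oestrogen response, taken from the 19962 protein-coding genes that GENCODE release 44 places on chromosomes 1 to 22 and X. They were listed by name and not by a measured value in these files. Earlier results of these data were known when the list was made. The data are CUT&RUN profiles of the retinoblastoma protein (Rb) in ZR-75-1, an established line of oestrogen receptor-positive breast cancer cells. In CUT&RUN an antibody directs a nuclease to the chromatin its target occupies, and the released DNA fragments are sequenced. Parental cells were given abemaciclib, an inhibitor of CDK4 and CDK6, at 500 nM for 4 days, or its solvent DMSO. Each treatment had 2 Rb libraries from independent cultures, and 1 further library from DMSO-treated cells used a mouse IgG2a antibody as a control for unspecific cleavage, which gives 5 libraries in all. All groups were parental cells, and a single line represents the tumour type. The files hold peak lists and no expression values, so the identity of the line was not checked against marker genes.

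Oestrogen binds the oestrogen receptor, a nuclear receptor that attaches to DNA at palindromic oestrogen response elements, mostly in enhancers far from start sites, and switches on genes for growth factors, transporters, cofactors and luminal differentiation. Rb is the pocket protein that holds E2F transcription factors in check in the G1 phase. CDK4 and CDK6 phosphorylate Rb and release it, and inhibitors of these kinases keep Rb in its active, hypophosphorylated form. Rb does not read DNA sequence itself and is brought to chromatin by E2F and other partners. Inhibitors of CDK4 and CDK6 are given together with endocrine therapy in oestrogen receptor-positive breast cancer, which is why the occupancy of Rb at oestrogen-responsive genes is of interest.

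Each peak has a summit, the position with most fragments, and a strength, the −log10 p-value by which the peak caller judged it against background. A gene counted as bound in a library when a peak touched the promoter window from 2000 bp upstream to 500 bp downstream of any of its annotated start sites (TSSs). Strength was also given as the rank among all peaks of that library, where rank 1 is the strongest, and as that rank in percent of the library's peaks. The number of fragments over a summit was recovered from the fold enrichment and the p-value, which fixed a single whole number for 97.8 to 99.7% of the peaks of each library. The Rb libraries of DMSO-treated cells had 1438 and 2582 peaks, those of abemaciclib-treated cells 13960 and 12234, and the IgG2a library 589. The lowest background that recurred under the summits was 0.65, 0.68, 0.66 and 0.52 fragments in the 4 Rb libraries, a range of 1.31 times. At that background the weakest peaks had 6 summit fragments in each DMSO library and 5 in each abemaciclib library. Duplicate fragments had been kept and carry no molecular identifiers, so fragment numbers are not numbers of independent molecules. In bulk cultures, more cells in one phase of the cell cycle and more Rb on the chromatin of each cell cannot be told apart.

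Several short sequences show where Rb peaks of these genes sat. All are GRCh38 reference sequence and none was read from the cells. The first set holds the 100 bases around the summit of the 5 regions outside every promoter window whose nearest protein-coding gene was a member and which were found after abemaciclib in each library but in no DMSO library. They are shown on the plus strand. These regions are the candidates for occupancy away from start sites, although the MYB region begins 719 bp from a start. Capitals mark a CCAAT box, the motif bound by the trimeric factor NFY.
ELF3 (chr1:202018659-202018758): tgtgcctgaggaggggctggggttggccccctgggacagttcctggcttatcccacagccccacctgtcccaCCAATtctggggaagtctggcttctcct
MYB (chr6:135182353-135182452): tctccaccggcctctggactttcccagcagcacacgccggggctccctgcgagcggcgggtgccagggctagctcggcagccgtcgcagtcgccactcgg
MLPH (chr2:237475399-237475498): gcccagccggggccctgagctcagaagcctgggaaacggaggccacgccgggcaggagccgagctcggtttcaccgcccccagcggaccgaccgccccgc
PTGES (chr9:129726666-129726765): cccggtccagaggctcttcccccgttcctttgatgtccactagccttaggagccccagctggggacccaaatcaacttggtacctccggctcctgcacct
MED13L (chr12:115917126-115917225): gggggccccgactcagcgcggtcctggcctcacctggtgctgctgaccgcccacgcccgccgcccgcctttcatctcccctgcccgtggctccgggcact

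The second set holds the promoter sites with the E2F motif or the CCAAT box that lay closest to the summit in abemaciclib replicate 1, for members that had a DMSO peak or were among the 12 strongest of those bound after abemaciclib only. The site of KLF10 is not shown. Each is read on the strand that carries the motif, which stands in capitals. The CCAAT sites come first.
LRIG1 (chr3:66501169-66501198): tggactccggcagCCAATgagcagcaggcg
OLFM1 (chr9:135075398-135075427): cgcctctctccgCCAATgccaggcgcgcgg
FKBP4 (chr12:2794928-2794957): ggcggggcgggaCCAATcgctccccgagcc
AREG (chr4:74445331-74445360): cgctgcgaaggaCCAATgagagccccgctg
ELF3 (chr1:202010502-202010531): aatcccctccatCCAATgagacaccagctc
TIAM1 (chr21:31559513-31559542): aggtggaggtggCCAATggcgtgcacagac
CISH (chr3:50612029-50612058): cccgcgagctgaCCAATcgcgacgctgaag
The E2F sites of the same kind were found in RARA, MAPT and SVIL.
RARA (chr17:40316880-40316909): tccccaggccccTTCCCGCctgctgggccg
MAPT (chr17:45894474-45894503): ggaggctcgcgTTCCCGCtgctcgcgcctg
SVIL (chr10:29735781-29735810): aggatcgccgcTTCCCGCcgacagcggctc

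The third set holds every match to the oestrogen response element within a promoter peak region of a member. The pattern searched was GGTCANNNTGACC, which is its own reverse complement, with at most 1 mismatch over its 10 fixed bases. Each match is shown in capitals with 6 bases on either side, on the plus strand.
CELSR2 (chr1:109249841-109249865): cgcggtGCTCAGGGTGACCcgggag
FKBP4 (chr12:2796047-2796071): cggggaGGGCATCTTGACCtgggcc
IGFBP4 (chr17:40443726-40443750): tcgggcGGTCATGCTGCCCctctgc

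Most of the oestrogen response genes had an Rb peak at a promoter after abemaciclib and few had one in DMSO. Of the 58 genes, 4 were bound in DMSO replicate 1, 5 in DMSO replicate 2, 48 in abemaciclib replicate 1 and 44 in abemaciclib replicate 2. No member had an IgG2a promoter peak. The corresponding shares were 6.90, 8.62, 82.8 and 75.9%. Among all 19962 protein-coding genes the shares were 7.86, 12.4, 58.0 and 53.9% in the same order. The members' share was thus above that of all genes in both abemaciclib libraries. In DMSO the members' share was at or below that of all genes, on counts of only 4 and 5 members. Bound members numbered 4.50 ± 0.707 per DMSO library and 46.0 ± 2.83 per abemaciclib library (mean ± SD, n = 2 libraries each), and the difference of 41.5 members had a two-sided exact permutation p of 0.33, the smallest that 2 against 2 libraries can give. The direction was not kept among the strongest peaks: with each library limited to its 1438 strongest, 4, 2, 2 and 3 members were bound and the difference was −0.5. This limit keeps every peak of DMSO replicate 1 and drops the weaker peaks of the larger lists by construction. It therefore cannot show a gain made of weaker peaks.

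**Figure D1:**
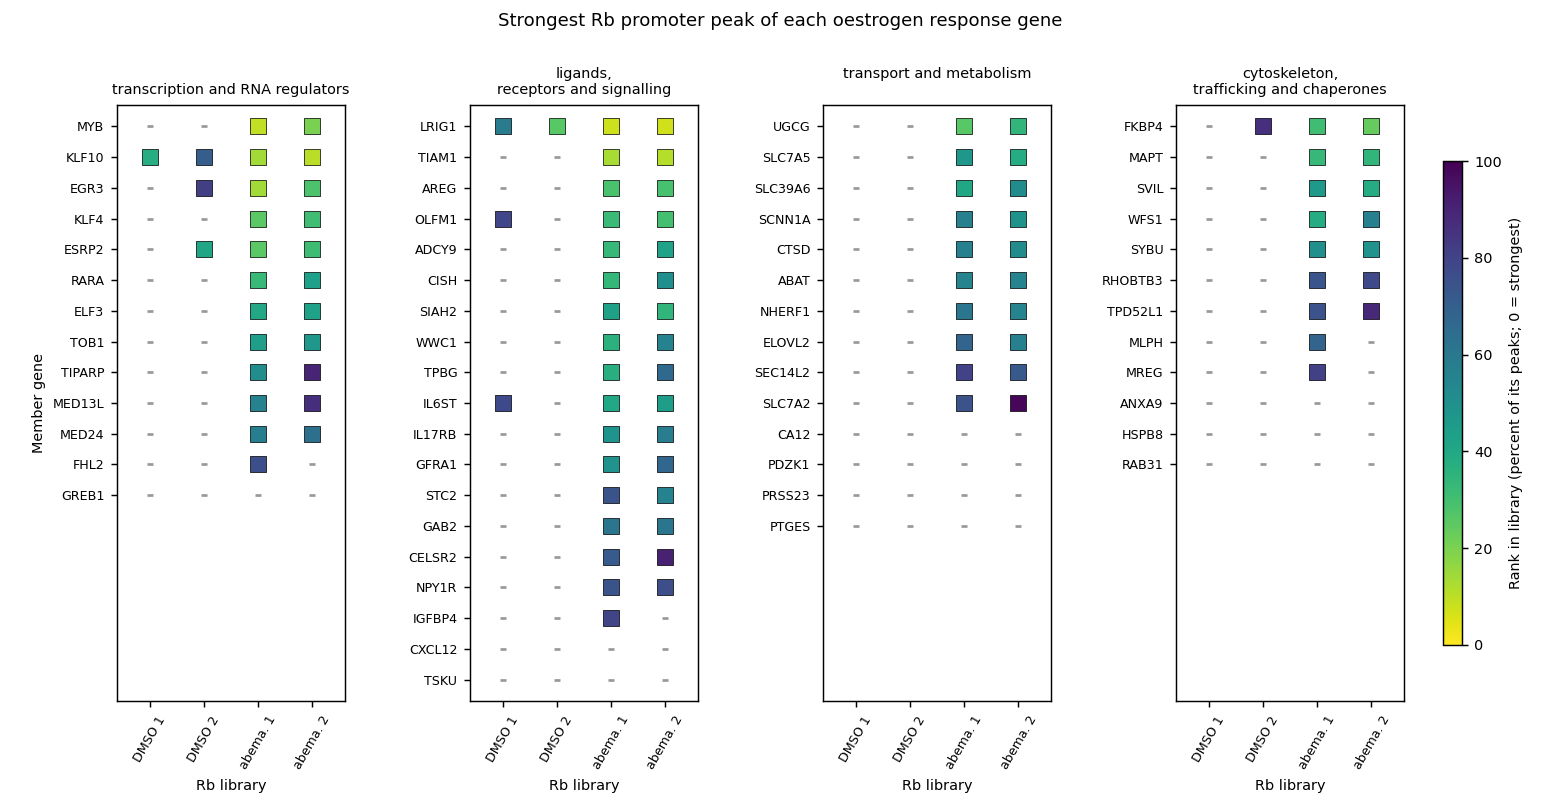
Rank of the strongest promoter peak of each of the 58 members in the 4 Rb libraries, with 1 panel per role and genes as rows. A square marks a bound library and its colour gives the rank in percent of that library's peaks (0 is the strongest), and a grey dash marks no promoter peak. The abemaciclib columns hold 48 and 44 squares and the DMSO columns 4 and 5.

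By the set of libraries that bound them, the members fell into 5 groups. A promoter peak in both abemaciclib libraries and neither DMSO library was found for 37 members (63.8%), against 38.9% of all protein-coding genes. With equal numbers of the strongest peaks, a limit that drops the weaker abemaciclib peaks by construction, it was found for 0. KLF10 and LRIG1 were bound in all 4 libraries (3.45% of members, 6.42% of all genes). That count was 0 at q of at most 1e-05, 1 with equal numbers of the strongest peaks, 5 without DMSO replicate 1 and 4 without DMSO replicate 2. EGR3, ESRP2, FKBP4, OLFM1 and IL6ST were bound in both abemaciclib libraries and 1 DMSO library (8.62% of members, 7.39% of all genes). FHL2, IGFBP4, MLPH and MREG were bound in 1 abemaciclib library alone (6.90% of members, 6.53% of all genes), in every case replicate 1. The remaining 10 members had no Rb promoter peak in any library (17.2% of members, 40.7% of all genes). The difference from all genes was therefore found mainly in the group gained after abemaciclib and in the group with no peak, and no test was run on these shares. The members were listed with earlier results of these data known, which limits what the difference can mean.

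The other genes of the oestrogen response were also mostly bound after abemaciclib, and their DMSO shares were higher than those of the members. A second list of 133 oestrogen-responsive genes that are not among the 58 had 15, 25, 104 and 97 genes bound in the 4 libraries in the order above. These are 11.3, 18.8, 78.2 and 72.9%, above the shares of all genes in every library. The members' DMSO shares of 6.90 and 8.62% rest on 4 and 5 genes. Their shortfall from the 7.86 and 12.4% of all genes is therefore a matter of few genes and is not read as a difference. In the top 10% of the abemaciclib peaks stood 11.5 and 10.3% of the bound genes of this list. Of the 133 genes, 66 (49.6%) were bound in both abemaciclib libraries and no DMSO library, among them PGR, the progesterone receptor, and the receptor tyrosine kinase RET. MYC and 8 further genes were bound in all 4 libraries, and 21 genes (15.8%), among them CCND1, which encodes cyclin D1, in both abemaciclib libraries and 1 DMSO library. Another 9 were bound in 1 abemaciclib library alone, and AQP3 had another set of libraries. No promoter peak was found for 27 genes (20.3%), which included ESR1, the gene of the oestrogen receptor itself, the secreted peptide genes TFF1 and TFF3, and XBP1. The list of 133, like that of the 58, was written with earlier results of these data known. The contrast between the lists was not tested.

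Members with a DMSO peak are described first, since for these genes Rb was found in both states. LRIG1, a transmembrane inhibitor of ERBB receptors, had the strongest Rb peak of all 58 members. Its strength was 8.24 (rank 840) and 12.9 (rank 672) in DMSO and 120 (rank 1048) and 99.4 (rank 892) in abemaciclib. The summits held 9 and 14 fragments in DMSO and 87 and 71 in abemaciclib, and the summit lay at −213 and +40 bp of the nearest TSS in DMSO and at +114 and +82 bp in abemaciclib. All 4 peaks lay in 1 region at chr3:66500167-66501758, over the start of the gene. The fragment ranges of the treatments did not overlap. The ranks come from lists of unequal length and were not compared between treatments.

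KLF10, a Kruppel-like factor of the TGF-beta response, was the other member bound in all 4 libraries. Its upstream peak had a strength of 10.9 (rank 540) and 7.13 (rank 1821) in DMSO and of 80.7 (rank 1906) and 79.6 (rank 1290) in abemaciclib. Summit fragments numbered 11 and 8 in DMSO and 58 and 50 in abemaciclib. The summit lay between 158 and 268 bp upstream of the nearest TSS in all 4 libraries. A second peak was called in the abemaciclib libraries alone, with strengths of 64.3 and 44.1. Its summit lay within the gene, 292 and 236 bp downstream of another annotated start. KLF10 was therefore bound at a pair of separate places after abemaciclib and at the upstream one in DMSO.

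Of the 5 members with a peak in 1 DMSO library, 3 had it in replicate 2 and 2 in replicate 1. ESRP2, an epithelial regulator of splicing, had a DMSO replicate 2 peak of strength 9.75 (rank 1050) with 15 summit fragments, and abemaciclib peaks of 47.6 and 32.9 (ranks 3589 and 3790) with 47 and 38. The DMSO summit lay in a coding exon, 63 bp downstream of the nearest annotated start, which is internal to the gene. The abemaciclib peaks were 3172 and 3036 bp wide. Their highest point lay closer to the 5′ end of the gene, 567 and 583 bp from the TSS nearest to it. FKBP4, the HSP90 co-chaperone FKBP52, had 9 summit fragments in DMSO replicate 2 (strength 5.91, rank 2226) and 36 in each abemaciclib library (39.6 and 43.3, ranks 4258 and 2885). EGR3, an immediate-early zinc finger factor, had a DMSO replicate 2 peak of strength 6.18 (rank 2102) and abemaciclib peaks of 79.6 and 36.0 (ranks 1941 and 3480) with 56 and 29 summit fragments. The fragment number of its DMSO summit could not be recovered. All 3 EGR3 summits stood apart from the start, at 1897, 1787 and 1738 bp upstream, in an intron of a non-coding gene.

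OLFM1, a secreted olfactomedin glycoprotein, had 7 summit fragments in DMSO replicate 1 (strength 6.36, rank 1138) and 28 and 25 in abemaciclib (36.5 and 34.2, ranks 4509 and 3669), all with summits between 53 and 106 bp upstream of the TSS. A further OLFM1 peak, about 400 bp inside another start of the gene, was called in the abemaciclib libraries alone, with strengths of 11.1 and 5.4. IL6ST, which encodes the shared signalling receptor gp130, had 10 summit fragments in DMSO replicate 1 (strength 6.68, rank 1120) and 35 and 22 in abemaciclib (28.4 and 21.3, ranks 5577 and 5482). In each of the 6 genes with a recovered DMSO value, both abemaciclib libraries held more summit fragments than either DMSO peak. The members' DMSO peaks were not among the strong ones of their libraries. None stood in the top 10%, and the median rank was 68.2% of the peaks in replicate 1 and 70.5% in replicate 2, against 48.6 and 44.6% for all bound genes.

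**Figure D2:**
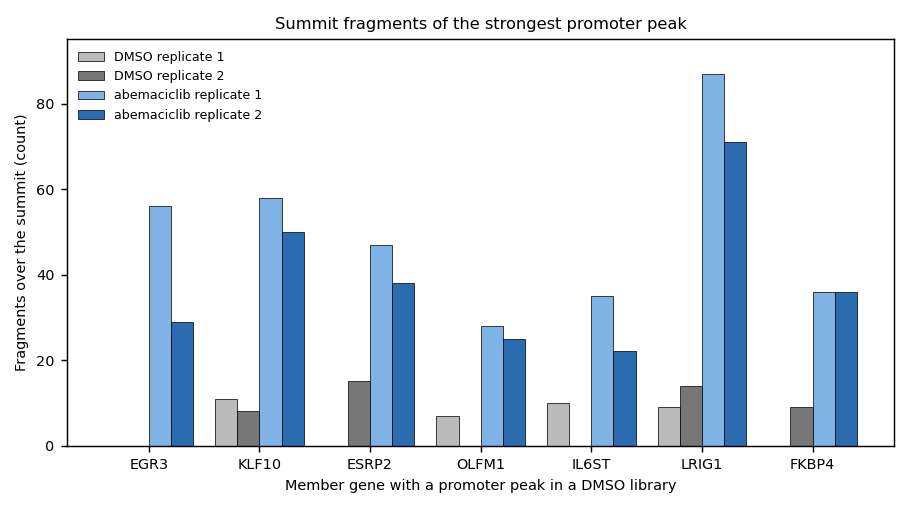
Fragments over the summit of the strongest promoter peak (count, y axis) for the 7 members bound in a DMSO library, with 1 bar per Rb library. A missing bar means no peak, except in DMSO replicate 2 of EGR3, where a peak was called and its fragment number was not recovered. DMSO bars reach 15 at most and abemaciclib bars range from 22 to 87.

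The transcription and RNA regulators made up 13 members. After abemaciclib, 12 were bound in replicate 1 and 11 in replicate 2, with a median rank of 36.4 and 42.4% of the peaks. MYB, a transcription factor of progenitor and luminal cells, had a strength of 103 and 49.2 (ranks 1328 and 2475) with 66 and 37 summit fragments, 242 and 142 bp upstream of its TSS. KLF4, a Kruppel-like factor, had 48.3 and 34.0 (ranks 3566 and 3734) at a summit 263 and 307 bp upstream of the nearest start. This summit lay in an intron of the annotated gene, and a second, weaker peak of 19.2 and 10.8 lay further inside it. RARA, the nuclear receptor for retinoic acid, had 36.5 and 22.5 (ranks 4562 and 5337) at summits 1423 and 1334 bp upstream of the nearest start, in an intron of its longer transcripts, with weaker peaks at other starts. ELF3, an epithelial ETS factor, had 28.3 and 23.1 (ranks 5591 and 5189) at 133 and 47 bp upstream. None of these 4 had a peak in DMSO.

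The Mediator subunits MED13L and MED24, the deadenylation adaptor TOB1 and the mono-ADP-ribosyltransferase TIPARP were bound in both abemaciclib libraries at lower ranks. The strongest MED24 peak of replicate 2 had its summit in an untranslated exon of THRA, 1836 bp upstream of a MED24 start, so it lay over a neighbouring gene. TIPARP had the largest gap between replicates of all 44 members bound in both libraries, 39.4 percentage points of rank, with strengths of 19.4 and 6.04 and summits 368 bp upstream and 244 bp downstream of the nearest annotated start. The LIM-domain cofactor FHL2 was bound in abemaciclib replicate 1 alone, with a strength of 8.65 (rank 10596) and 9 summit fragments. GREB1, a chromatin-bound cofactor of the oestrogen receptor and one of its best-known targets, had no Rb promoter peak in any library.

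Ligands, receptors and signalling proteins made up 19 members, of which 17 and 16 were bound in the abemaciclib libraries. TIAM1, an exchange factor for RAC1, had the best mean rank of all members gained after abemaciclib, with strengths of 83.5 and 76.9 (ranks 1825 and 1354) and 54 and 48 summit fragments at 460 and 450 bp upstream of the nearest start. AREG, a ligand of the EGF receptor, had 42.0 and 35.9 (ranks 4015 and 3569) with summits at +47 and +56 bp, inside its first exon. ADCY9, an adenylyl cyclase, had 35.6 and 23.2 (ranks 4621 and 5188). SIAH2, an E3 ubiquitin ligase, had 25.4 and 29.1 (ranks 5993 and 4243). CISH, an inhibitor of cytokine and STAT signalling, had 34.9 and 18.1 (ranks 4681 and 6176) at 184 and 173 bp upstream, where the promoter window is shared with MAPKAPK3. These 5 genes had at least 15 summit fragments in each abemaciclib library and no DMSO peak.

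CELSR2, an atypical cadherin, stood near the other end, with 9.88 and 5.88 (ranks 10012 and 11113) and 10 and 6 summit fragments. IGFBP4, which binds insulin-like growth factors, was bound in abemaciclib replicate 1 alone, with 7.76 (rank 11127) and 9 fragments. CXCL12, a chemokine, and TSKU, a secreted leucine-rich repeat protein, had no peak. The secreted glycoprotein hormone STC2, the RET co-receptor GFRA1, the interleukin-25 receptor IL17RB, the neuropeptide Y receptor NPY1R, the surface antigen TPBG, the adaptor GAB2 and the Hippo scaffold WWC1 had mean ranks between these extremes.

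Transport and metabolism contributed 14 members, 10 of them bound in both abemaciclib libraries and none in DMSO. UGCG, the synthase of glucosylceramide, was the strongest, with 46.7 and 29.1 (ranks 3650 and 4243), 34 and 22 summit fragments, and summits at +154 and +73 bp. SLC7A2, a cationic amino acid transporter, was the weakest of all members bound in both libraries, with 9.10 and 4.51 (ranks 10424 and 12028) and 11 and 7 fragments. The amino acid transporter SLC7A5, the zinc transporter SLC39A6, the sodium channel subunit SCNN1A, the scaffold NHERF1, the GABA transaminase ABAT, the fatty acid elongase ELOVL2, the tocopherol-binding SEC14L2 and the lysosomal protease CTSD had mean ranks between these. The carbonic anhydrase CA12, the transporter scaffold PDZK1, the prostaglandin E2 synthase PTGES and the serine protease PRSS23 had no promoter peak.

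Cytoskeleton, trafficking and chaperones held 12 members, of which 9 and 7 were bound in the abemaciclib libraries. MAPT, which encodes the microtubule protein tau, had 35.6 and 29.2 (ranks 4622 and 4239) at 113 and 166 bp upstream. SVIL, an actin-binding protein, had 22.9 and 26.0 (ranks 6444 and 4693). TPD52L1, of the tumour protein D52 family, had 9.10 and 6.38 (ranks 10424 and 10880) at summits within the gene. The kinesin linker SYBU, the ATPase RHOBTB3 and the endoplasmic reticulum protein WFS1 were also bound in both. MLPH and MREG, which act in melanosome transport, were bound in abemaciclib replicate 1 alone, with 11.1 (rank 9502) and 7.46 (rank 11236). The GTPase RAB31, the annexin ANXA9 and the small heat shock protein HSPB8 had no promoter peak.

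The 22 gained members not given with their own values had ranks from 5037 to 11228 in abemaciclib replicate 1 and from 4710 to 11039 in replicate 2, with 10 to 30 and 7 to 26 summit fragments. Over all 37 gained members the summits held 10 to 66 fragments in replicate 1 and 6 to 48 in replicate 2, with medians of 22 and 18. The 4 members bound in replicate 1 alone had 8 to 11. Seen against the 6 fragments of the weakest DMSO peaks at the lowest background, the gained members were thus not all far above the limit of calling. Bound members were not among the strongest Rb targets of these cells: their strongest peaks had a median rank of 46.5 and 49.9% of the peaks in the abemaciclib libraries, against 37.6 and 40.0% over all bound protein-coding genes, and 2 of 48 (4.17%) and 1 of 44 (2.27%) stood in the top 10%, against 14.4 and 13.7%. These are descriptions, with no test.

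The replicates ordered the members alike. Over the 44 members bound in both abemaciclib libraries Spearman's rho of the ranks was 0.849, and the median difference was 7.82 percentage points. The points share the libraries and the local base composition, so rho is a description across genes, which are not replicates. Members whose ranks differ by less than that were not told apart by these replicates, whereas LRIG1, KLF10, TIAM1, MYB, EGR3 and AREG were within the strongest 30% in both.

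**Figure D3:**
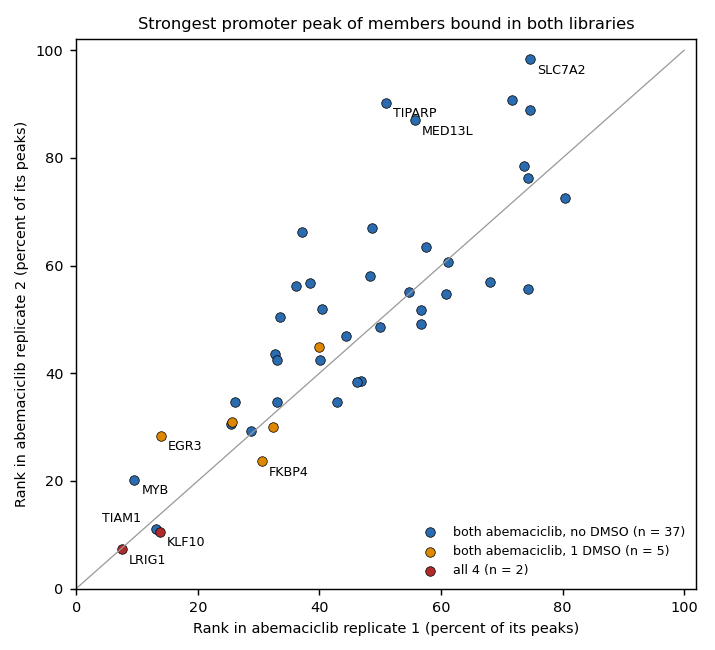
Rank of the strongest promoter peak in abemaciclib replicate 1 (x axis) and replicate 2 (y axis), in percent of the library's peaks, for the 44 members bound in both; colours give the DMSO pattern and the line marks equal ranks. LRIG1 and KLF10, the members bound in all 4 libraries, lie at the strong end together with TIAM1, and TIPARP lies farthest from the line.

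The members' peaks were wider after abemaciclib and lay close to start sites, as did those of all bound genes. The median width of the members' promoter peaks was 302.0 and 183.0 bp in DMSO and 848.5 and 829.0 bp in abemaciclib, a difference of 596.2 bp (two-sided exact permutation p = 0.33, n = 2 each, again the smallest possible). The DMSO medians rest on 4 and 5 bound members. Over all bound protein-coding genes the medians were 286 and 276 bp in DMSO and 926 and 863 bp in abemaciclib, so the change was not particular to the members. The summit lay within 500 bp of a TSS for 44 of 48 and 40 of 44 members in abemaciclib (91.7 and 90.9%), against 92.4 and 92.3% of all bound genes. It lay upstream of the TSS for 62.5 and 63.6% of bound members, against 51.3 and 52.4% of all bound genes. EGR3 and RARA had summits more than 1 kb upstream in both abemaciclib libraries, and ESRP2 had one past +500 bp in both. The strongest promoter region also overlapped the promoter window of another protein-coding gene for 4 of the 48, namely IL17RB (with CHDH), CISH (with MAPKAPK3), SLC39A6 (with ELP2) and CTSD (with an unnamed gene record), and these peaks cannot be assigned to 1 gene.

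**Figure D4:**
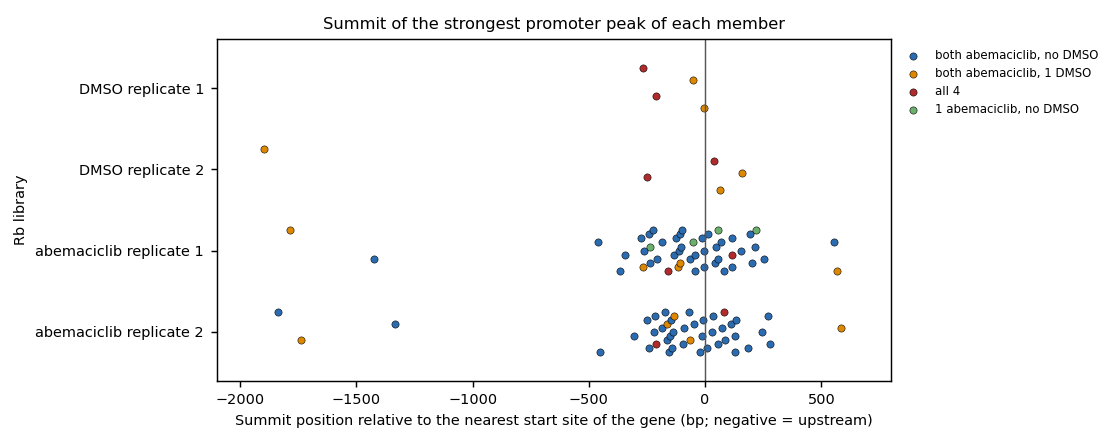
Position of the summit of each member's strongest promoter peak relative to the nearest TSS (bp, negative is upstream), with 1 row per Rb library and points jittered within a row; colours give the set of libraries that bound the gene. In the abemaciclib rows 44 of 48 and 40 of 44 summits (91.7 and 90.9%) lie within 500 bp of the TSS, against 92.4 and 92.3% over all bound genes.

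For several members no Rb promoter peak of abemaciclib replicate 1 lay over the canonical start. The window from 250 bp upstream to 50 bp downstream of the Ensembl canonical start was touched by a promoter peak of abemaciclib replicate 1 for 40 of the 48 bound members and not for 8, which were RARA, EGR3, MED24, GFRA1, TIAM1, SCNN1A, SVIL and TPD52L1. The TIAM1 summit lay 215 kb and the SVIL summit 101 kb upstream of the canonical start, in each case near the 5′ end of the annotated gene. The SCNN1A and RARA summits lay 11.9 and 7.68 kb downstream of the canonical start. The EGR3 summit lay 1.79 kb upstream of the canonical start, which was also its nearest start. OLFM1 counts among the 40 through its weaker peak, of strength 11.1, while its strongest summit lay 12.4 kb upstream of the canonical start. Which transcripts of these genes ZR-75-1 cells use was not measured in these files.

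Base composition was described in the same canonical window, which could be read for all 58 members and all 19962 genes. The ratio of observed to expected CpG dinucleotides, which is near 1 in CpG islands and low elsewhere, had a median of 0.902 in the 48 members with any Rb promoter peak and of 0.591 in the 10 with none. Over all protein-coding genes these medians were 0.868 and 0.375. Of the 47 members with a ratio of at least 0.6, 89.4 and 80.9% were bound in the abemaciclib libraries, against 77.7 and 72.6% of all such genes. Of the 11 members below 0.6, 6 (54.5%) were bound in each, against 17.2 and 15.2% of all such genes. These 6 were RARA (0.492), ELF3 (0.269), TIAM1 (0.448), SCNN1A (0.422), SEC14L2 (0.578) and SVIL (0.186), and in 4 of them, RARA, TIAM1, SCNN1A and SVIL, the peak was not over the canonical window. Of the 10 unbound members, GREB1 (0.397), PDZK1 (0.188), PTGES (0.351), ANXA9 (0.192) and HSPB8 (0.52) were below 0.6, while CXCL12 (0.879), TSKU (0.915), CA12 (0.662), PRSS23 (0.855) and RAB31 (1.07) were above it.

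**Figure D5:**
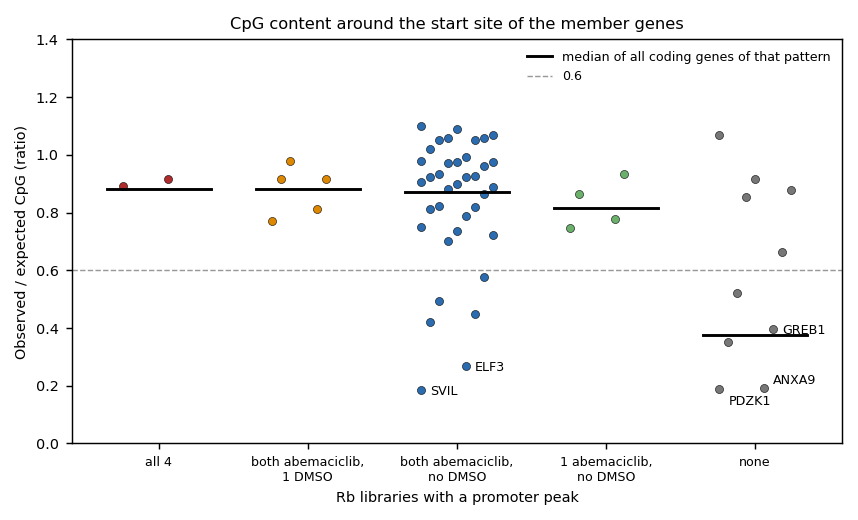
Observed to expected CpG ratio (y axis) from 250 bp upstream to 50 bp downstream of the canonical start for the 58 members (points, jittered), by the Rb libraries that had a promoter peak (x axis); black bars are the medians of all protein-coding genes of that set and the dashed line is 0.6. Bound members lie mostly above 0.6, with 6 below it, and the 10 unbound members are spread from 0.188 to 1.07.

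The distance of the 10 unbound members to the nearest Rb region varied widely. For GREB1 the nearest region with a peak in both abemaciclib libraries was at chr2:11465393-11466553, 15.8 kb from a GREB1 start, over the promoter of E2F6. ANXA9 lay 7.34 kb from the region over the promoter of CERS2, PRSS23 14.4 kb from that of FZD4 and PDZK1 12.7 kb from a region with no protein-coding promoter. For PTGES, RAB31, TSKU and CA12 the distance was 26.1, 57.5, 69.0 and 122 kb, and for HSPB8 and CXCL12 it was 481 and 573 kb. Of these 10 genes only PTGES was the nearest protein-coding gene of a non-promoter Rb region.

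Outside promoter windows, 5 members (8.62%) were the nearest protein-coding gene of a region bound in both abemaciclib libraries and no DMSO library, against 3.54% of all protein-coding genes. In the list of 133 other oestrogen-responsive genes it was 12 (9.02%). The members' count was 3 at q of at most 1e-05, 0 with equal numbers of the strongest peaks and 11 without abemaciclib replicate 2. The MLPH region (chr2:237474904-237475869) was the strongest, with 17.5 and 21.1 (ranks 7593 and 5505) and 18 and 17 summit fragments, and lay in intergenic DNA 9.56 kb from the nearest MLPH start. The ELF3 region (chr1:202018315-202018889) had 16.8 and 10.2 (ranks 7745 and 8781) with 25 and 16 fragments, 4.54 kb from the nearest start and past the end of the gene. The PTGES regions were intergenic. The one bound in both libraries (chr9:129726517-129726894) had 12.4 and 9.59 (ranks 9026 and 8892) with 12 and 9 fragments, 26.1 kb from the start, and another at 14.8 kb was called in abemaciclib replicate 1 alone.

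The MYB region (chr6:135182233-135183142) lay in an intron with its edge 719 bp inside the nearest start, and had 6.02 and 7.41 (ranks 12415 and 10160) with 9 and 10 fragments. The much stronger MYB promoter peaks ended close by, at positions 135181988 and 135181777. The MED13L region (chr12:115917026-115917308) lay in intergenic DNA past the 3′ end of the gene, 43.2 kb downstream of the nearest annotated start. The MED13L promoter peaks lay at the other end of the gene, within chr12:116277397-116278159. The region had 4.20 and 9.59 (ranks 13639 and 8892) and 5 and 9 fragments, the first at the limit of calling. In abemaciclib replicate 1 all 5 regions were weaker than the median promoter peak of the members, and in replicate 2 all but the MLPH region, which stood at 45.0% of the peaks against a median of 49.9%. Nearest-gene assignment says nothing on contact between a region and a promoter.

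Another 8 members were nearest to regions found in 1 library, namely EGR3, KLF4, MED24, ESRP2, LRIG1, NHERF1, SVIL and WFS1. Together with the second PTGES region these were 9 regions, of which 7 were in abemaciclib replicate 1, 1 in abemaciclib replicate 2 and 1, near SVIL, in DMSO replicate 2. Their summits held 6 to 18 fragments, and the NHERF1 region, in an intron, was the one with 18. Any non-promoter region was thus found for 13 members (22.4%), against 24.1% of the 133 other oestrogen-responsive genes and 9.43% of all protein-coding genes.

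Sequence motifs were counted in the 200 bp around the summits of promoter peaks, on both strands, for the members' 61 windows in abemaciclib replicate 1 and 54 in replicate 2, some of which belong to the same gene. The E2F motif, searched as TTCCCGC and in the further forms TTCGCGC and, with other inner bases, TTGCCGC and also with the form TTGGCGC, was in 16.4 and 18.5% of member windows and in 17.5 and 17.9% of the 11183 and 10194 windows of all protein-coding promoters. The CCAAT box was in 31.1% (95% Wilson interval 20.9 to 43.6, which covers counting error only) and 31.5% (20.7 to 44.7), against 18.8 and 19.7%. The cell-cycle homology element (TTTGAA) was in none of the member windows of either library, against 3.77 and 3.93% of all windows, and 0 of 61 has an upper Wilson limit of 5.92%. In the windows at canonical starts the E2F motif was in 10.4% of the members with a peak, against 23% of all genes with one, so its share beside that of all genes depended on where the window was placed. In windows of 400 bp the share of CCAAT in members was 39.3 and 46.3%, against 33.6 and 34.7%, so this gap depended on the window too, and in the windows at canonical starts CCAAT was in 35.4% of the members with a peak, against 36.9% of all genes with one.

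The oestrogen response element, with at most 1 mismatch, was found in 0 of 61 and 1 of 54 member summit windows (1.85%), against 0.286 and 0.373% of all. Its half-site GGTCA, which occurs often by base composition, was in 24.6 and 27.8%, against 23.5 and 23.7%. Over the whole merged regions the element was in 3 of the members' 63 promoter regions (4.76%), against 2.2% of 11612, and in none of their 14 non-promoter regions, against 2.15% of 2281. The 3 matches are those printed above. In CELSR2 the match lay 33 bp from the nearest summit, in IGFBP4 233 bp and in FKBP4 760 bp. That CELSR2 summit is of a second peak in abemaciclib replicate 2, of strength 4.75 (rank 11914) with 5 fragments, at the limit of calling. At q of at most 1e-05 the element was in 0 of 44 member summit windows of that library. A forkhead motif (TGTTTAC) was in none of the member windows of either library, against 0.93 and 1.06% of all windows. A GATA motif (AGATAA or TGATAA) was in 1 window of each, against 2.97 and 2.94%, and an AP-1 motif (TGACTCA or TGAGTCA) in none, against 1.27 and 1.20%. At shares this low, 61 and 54 windows are too few to show a difference from all promoters. A match to these letters is no sign that the factor was bound, and its absence in a window says nothing about the factor elsewhere.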

How the data were processed

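A total of 5 peak lists, 1 per library, were analysed. Per the study's methods, reads were trimmed with BBDuk, aligned to GRCh38 with Bowtie2 2.3.4.1 and, with duplicates kept, called with MACS2 2.2.7.1 at q 0.05 against IgG; DiffBind and deepTools 3.5.0 stand in the submitters' processing notes and their output was not used here. The files deposited by the authors give for each peak an integer score, the fold enrichment over background at the summit, and −log10 p-value and −log10 q-value; none is normalized between libraries, and no reads or counts were analysed here.

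Peaks were assigned to GENCODE release 44 with Python 3.11.15, with promoters from 2000 bp upstream to 500 bp downstream of any TSS. Regions were merged over the Rb libraries where peaks shared at least 1 bp. Summit fragments were solved as whole numbers from fold (pseudocount 1) and p-value, within 0.0002 of the p-value, and this step and the gene assignment were tested on simulated data. Sequence was read from hg38 with pysam 0.24.0. Groups were compared over libraries by exact permutation with scipy 1.17.1. Members, the list of 133 other genes and the rules were chosen with earlier results of these data known. Own values were given for members with a DMSO peak, the 12 best and 3 worst gained members by mean abemaciclib rank, members of 1 abemaciclib library and those nearest to non-promoter regions in both; the sites printed in the second set of sequences were chosen after their values were seen. Alternatives were q limits of 0.01 and 1e-05, equal numbers of peaks, a promoter window from 1000 bp upstream to 100 bp downstream, starts of protein-coding transcripts only, windows of 400 bp around summits, no IgG2a-overlapping peaks, the peak midpoint, each library left out and the replicate block. Replicate numbers in the labels were not stated to mark a shared batch.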

Additional observations from a re-analysis of the deposited data

How the results depend on the processing

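Of 75 alternative values for 8 results, 65 kept their direction and size. With equal numbers of the strongest peaks (1438 per library) the difference in bound members turned to −0.5 (exact permutation p = 1.00), the members gained in both abemaciclib libraries fell to 0, those bound in all 4 libraries to 1 and those with a gained region outside promoters to 0, while peaks stayed wider in abemaciclib, by 1063 bp. This alternative removes the weaker peaks of the larger lists by construction. At q of at most 1e-05 no member was bound in all 4 libraries and 3 had a gained region outside promoters nearest to them. The E2F share was 34.4% in 400-bp windows, against 34.9% for all promoter windows. Leaving out 1 library gave differences of 39.5 to 43.5 members and of 536.8 to 655.8 bp, with 37 to 41 gained members; members bound in all libraries left numbered 2 to 5, with 4 without DMSO replicate 2 and 5 without DMSO replicate 1. Members with such a region numbered 5 to 11, with 11 without abemaciclib replicate 2. Dropping peaks over the promoters of 2 or more coding genes, an alternative chosen after seeing the data, gave a difference of 37.5 members. With the replicate block the differences were 41.5 members and 596.2 bp, each with an exact p of 0.5, the smallest that 2 pairs allow; the deviations of same-numbered libraries had a correlation of −0.162 over 1105 regions. Requiring the summit inside the promoter window, chosen after seeing the data, left 41.5, 37 and 2 members for the first 3 results and could not give non-promoter regions. The crossed pairing, also chosen after seeing the data, gave the same 41.5 members. Pairing the same libraries in either way leaves the mean difference unchanged by construction. These values are counted among the 65 that were kept but say nothing on robustness. With 2 libraries per treatment no comparison can reach 0.05, and peak lists without counts limit what can be said of genes below the threshold.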
